A study of Mus musculus with 2 samples.

Results

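Chemokines are small secreted proteins that direct the movement of leukocytes and progenitor cells through G protein-coupled receptors, and they are classed by the spacing of their amino-terminal cysteines. Cxcl1, Cxcl2 and Cxcl5 bind Cxcr2 and recruit neutrophils, and their transcripts are known as rapid targets of NF-kB and as short-lived messages. Ccl2 and Ccl7 bind Ccr2 and recruit monocytes, whereas Ccl11, or eotaxin, binds Ccr3 and recruits eosinophils. Cxcl12 binds Cxcr4 and retains blood progenitors in the marrow niche, where reticular stromal cells are its main known source. Cxcl14 is a homeostatic chemokine of epithelia and connective tissue whose receptor is debated. These 8 genes were followed as named gene columns among the 32245 genes of the tables, and all 8 were present.

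The cells came from knee joints of female mice at 1 month of age. The control library was made from Stat3fl/fl mice, which carry loxP-flanked Stat3 and for which no Cre is listed. The mutant library was made from Acan-Cre+/Cre;Stat3fl/fl mice, in which a tamoxifen-inducible Cre is driven from the aggrecan gene, so that deletion is aimed at chondrocytes. The study's introduction says that chondrocytes can also become osteoprogenitors. Which cells of any class described here carried the deletion was not measured. By the study's methods pups received tamoxifen at postnatal days 2 and 3, knees of 2 to 3 females were pooled per genotype, and live cells negative for CD31, Ter119 and CD45 were sorted. With 1 library per genotype no difference below has a replicate check and no test was made, so that each ratio compares these 2 libraries and not the conditions. Intervals after a percent are 95% binomial intervals (exact, Clopper-Pearson) and cover counting error only.

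There were 4903 control and 1340 mutant cells, with a median of 4344 and 3743 estimated UMIs (unique molecular identifiers, 1 per captured RNA) per cell, and 2 cell barcodes occurred in both. Stat3, the targeted gene, stood at 140 CPM (counts per 1000000) in control and 94.9 CPM in mutant chondrocytes, a log2 ratio of -0.55, and whether its 3′ tags lie in the deleted part is not given in the sources used here, so this is no check of the labels. It was 105 and 169 CPM in fibroblasts (0.69) and 179 and 162 CPM in marrow stromal cells (-0.14). Erythroid cells, which the sort should have removed, were 35.4% of the control and 3.13% of the mutant library, and 75.7% of control against 8.43% of mutant cells had a globin transcript.

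Source cells were identified with gates of 6 markers per class, none of them a chemokine. A cell was placed in the class of which it had most markers above 0, if at least 3 were. The gates gave 1182 control and 344 mutant chondrocytes, 149 and 106 osteoblasts, 247 and 77 synovial lining cells, 269 and 132 fibroblasts, 245 and 42 tenocytes, 128 and 93 marrow stromal cells, and 52 and 30 mural cells. Clusters built without the 8 chemokines and named from the same markers held between 81.3% and 100% of the cells of each of these 7 stromal classes under the same name. The clusters differed in size from the gates, however. They held 365 control and 249 mutant cells for fibroblasts, 405 and 76 for tenocytes, and 1023 and 291 for chondrocytes. A further 881 control and 467 mutant cells stayed unassigned.

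Cxcl5, Cxcl1 and Cxcl2 lie within 147 kb of chromosome 5, and Ccl2, Ccl7 and Ccl11 within 27.4 kb of chromosome 11, in the RefSeq annotation of GRCm38.p6, the assembly also called mm10. Cxcl12 lies alone at chr6:117168535-117181368 and Cxcl14 at chr13:56288643-56296811. The 120 bases before the annotated start are shown for Cxcl1 and Cxcl2, neighbours that both stood higher in mutant fibroblasts, and for Cxcl12, whose ratio took both signs across classes. Capitals mark letters that match GGGA and TTCC with any 2 bases between them, a form of the kappaB motif bound by NF-kB, searched on both strands with overlapping matches joined.

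Cxcl1 (chr5:90891125-90891244, plus strand): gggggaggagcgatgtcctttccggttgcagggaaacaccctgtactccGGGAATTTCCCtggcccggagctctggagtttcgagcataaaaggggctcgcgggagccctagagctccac

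Cxcl2 (chr5:90903779-90903898, plus strand): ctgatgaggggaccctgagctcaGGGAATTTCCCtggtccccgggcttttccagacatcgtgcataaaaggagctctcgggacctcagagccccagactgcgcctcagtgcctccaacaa

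Cxcl12 (chr6:117168415-117168534, plus strand): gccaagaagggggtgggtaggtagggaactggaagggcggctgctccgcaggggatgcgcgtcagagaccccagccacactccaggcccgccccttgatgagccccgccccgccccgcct

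The match began 71 bases before the start in Cxcl1 and 97 bases before it in Cxcl2, as the same run of 11 letters in both. Windows of 300 bases, from 250 before to 50 after the start, were on hand for 4 of the 8 members, and neither Cxcl12 nor Cxcl14 held the motif in its window. Of all 32851 such windows 1.47% held it. A match describes these letters and is not evidence of binding, and windows for Cxcl5, Ccl2, Ccl7 and Ccl11 were not analysed here.

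Levels below are CPM over the summed cells of a class. The 3′ protocol captures 1 tag per RNA whatever its length, so CPM was compared between genes without division by length. The 8 chemokines differed widely in their source (the plot of levels by class).

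**Figure D1:**
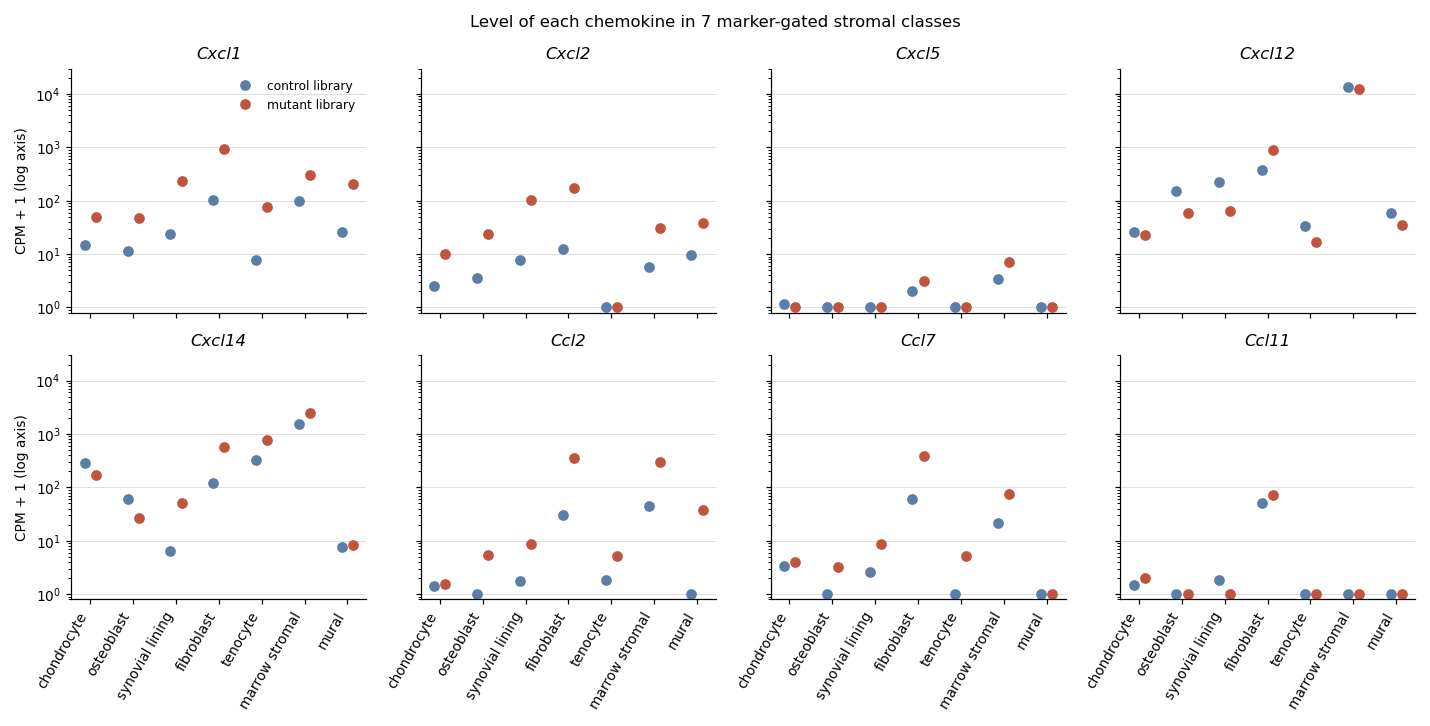
Level of each chemokine in the 7 stromal classes, as CPM + 1 on a log axis, with 1 point per library. Cxcl12 stood at 12285 CPM or more in marrow stromal cells of both libraries, Ccl11 was nearly limited to fibroblasts, and the mutant points of Cxcl1 lie above the control points in all 7 classes.

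Cxcl12 was supplied mainly by marrow stromal cells, which are the Lepr- and Adipoq-positive reticular cells of the marrow. They were 2.61% of control cells and held 80.2% of its estimated UMIs there, and were 6.94% of mutant cells and held 78.3%. Its level in this class was 13500.3 CPM in control cells against 12285 CPM in mutant ones, and it was above 0 in 127 of 128 and 91 of 93 cells, with a median cell of 14961 and 11857 CPM. Cxcl12 was thus at nearly the same level in its leading class in both libraries, with a log2 ratio of -0.14 that ranged from -0.37 to 0.01 over 14 alternatives. Over all cells its level was 295 CPM among control and 1047 CPM among mutant cells, a difference that went with the larger share of marrow stromal cells among mutant cells and the smaller share of erythroid cells. The next class was the fibroblast, with 372 CPM in control cells against 907 CPM in mutant ones, both far below the marrow stromal level.

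The estimated UMIs of Cxcl14 were spread over several classes, and the leading class differed between the libraries. In the control library 50.6% of its estimated UMIs were in chondrocytes and 19.96% in marrow stromal cells, whereas in the mutant library 18.1% were in chondrocytes and 45.9% in marrow stromal cells. Per cell class the order was different from that of the totals, since its level was highest in marrow stromal cells, at 1560.4 CPM among control and 2509 CPM among mutant cells. Tenocytes followed at 327 and 782 CPM, with chondrocytes next in the control (283 and 168 CPM) and fibroblasts next in the mutant library (119 and 564 CPM). It was the only one of the 8 above 0 in more than 10% of chondrocytes in either library, at 38.3% (35.5 to 41.2) of control and 36.3% (31.2 to 41.7) of mutant chondrocytes. After every cell was thinned to 1500 UMIs these shares were 24.5% and 18.2%. Among control erythroid cells, a lineage not known to make the transcript, the share was 2.36% of 1735 cells, with a median depth of 6038 estimated UMIs against 4642 in control chondrocytes, and 3 of these cells held 50.5% of the erythroid UMIs. No UMI was found in the 42 mutant erythroid cells, where 3 counts allow up to 7.14% of cells with a UMI.

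Fibroblasts, gated on markers of the Pi16- and Dpp4-positive adventitial type among others, were the leading named class for Cxcl1, Cxcl2, Ccl2, Ccl7 and Ccl11 in both libraries. They made up 5.49% of the control cells, and 9.85% of the mutant cells. Their share of the estimated UMIs was 30.1% (control) and 57.0% (mutant) for Cxcl1, 20.1% and 50.4% for Cxcl2, 52.5% and 59.3% for Ccl2, 65.5% and 78.8% for Ccl7, and 59.2% and 94.3% for Ccl11. With a gate of 4 markers, chondrocytes led for control Cxcl1 and Cxcl2 and marrow stromal cells for control Ccl2, so the control order of these 3 is not firm.

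**Figure D2:**
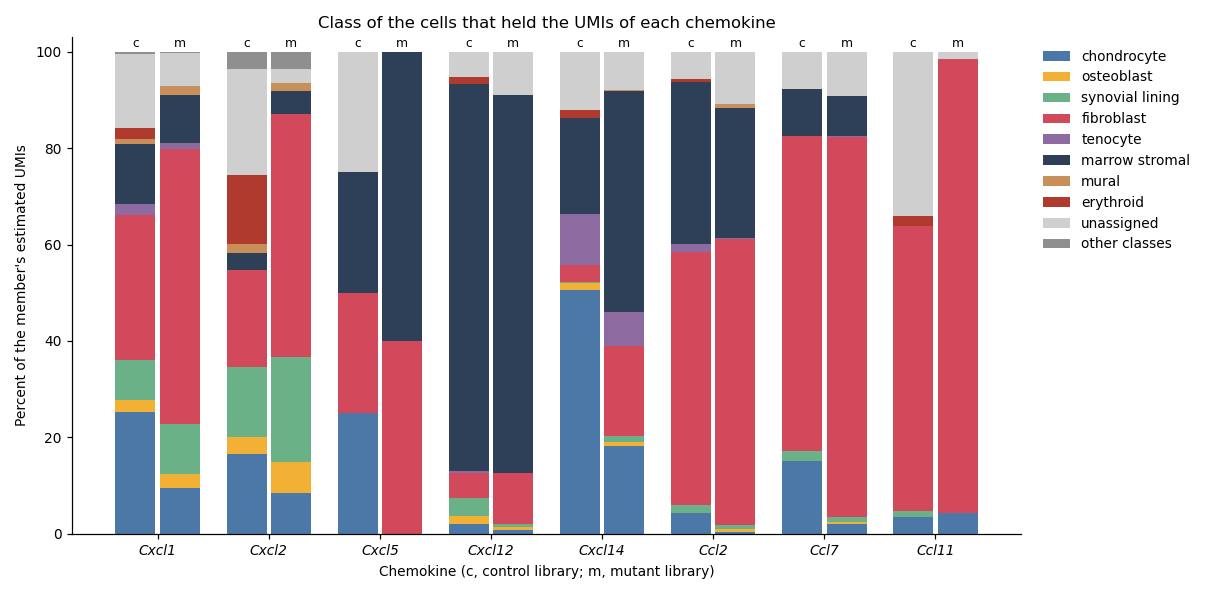
Percent of the estimated UMIs of each chemokine (y axis) held by cells of each class, in the control (c) and the mutant (m) library. Marrow stromal cells held 80.2% and 78.3% of Cxcl12, and fibroblasts held most of Ccl7 and Ccl11 in both libraries.

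Marrow stromal cells were second for Ccl2, holding 33.6% (control) and 26.8% (mutant) of its estimated UMIs. No Ccl11 UMI was found in them, in 0 of 128 control cells, where 3 counts allow up to 2.34% of cells with a UMI, and in 0 of 93 mutant cells, where they allow up to 3.23%. These limits concern cells with a UMI and not cells that express the gene.

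Cxcl5 was barely detected. It had 4 estimated UMIs in 4 control cells and 5 in 3 mutant cells, and these lay in fibroblasts, marrow stromal cells, a chondrocyte and an unassigned cell. No ratio was computed for it in any class.

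The ratio between the libraries, on the log2 scale with 1 CPM added to both levels, was computed for each member and class with at least 20 cells of the class in both libraries and at least 10 estimated UMIs of the member in either. Of 64 pairs of a member and 1 of 8 classes (the 7 stromal classes and the erythroid cells), 32 qualified. In 19 of these the member had at least 10 estimated UMIs in both libraries, and the mutant library was higher by a log2 ratio of at least 1 in 11, lower by at least 1 in 3, and between in 5. The other 13 pairs qualified through 1 library, 9 of them through the mutant library, where all 9 were higher by that much, and 4 through the control library, where 3 were lower, so that the filter favoured these directions and the 12 are no support for them. In all, 20 pairs were higher and 6 lower. The share of all genes with a mean of at least 10 CPM that were higher by that much was 2.78% in chondrocytes, 4.98% in osteoblasts, 6.76% in synovial lining cells, 5.69% in fibroblasts, 9.94% in tenocytes, 8.5% in marrow stromal cells, 16.1% in mural cells and 13.4% in erythroid cells. The share lower by that much was 7.05%, 12.3%, 6.57%, 9.84%, 15.9%, 13.7%, 22.3% and 26.7% in the same order, and the median of all genes lay between -0.27 and -0.05. Under that filter on the mean, 31 pairs of a member and a class qualified, of which 21 were higher and 4 lower. The 20 higher pairs all lay in the stromal classes, and 2 of the 6 lower pairs were erythroid. Those were Cxcl12 and Cxcl14, at 8.27 and 4.94 CPM in the control library and 0 in 42 mutant cells, where 3 UMIs would already equal 33.9 CPM, so that a difference was not detectable at this depth.

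**Figure D3:**
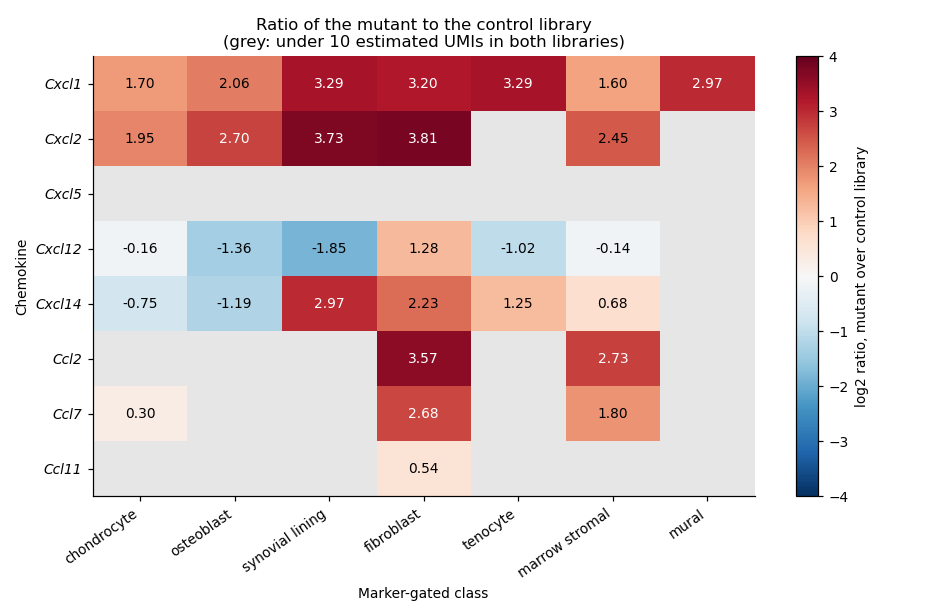
The log2 ratio of the mutant over the control library (colour and number) for each chemokine (y axis) in each stromal class (x axis), with pairs under 10 estimated UMIs in both libraries in grey. Cxcl1 is above 1 in all 7 classes, of which 3 qualified through the mutant library alone, whereas Cxcl12 and Cxcl14 take both signs.

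Among the Cxcr2 ligands, Cxcl1 was higher in the mutant library in the 4 classes with at least 10 estimated UMIs in both libraries, which were fibroblasts, marrow stromal cells, lining cells and chondrocytes. Osteoblasts, tenocytes and mural cells qualified through the mutant library alone. Fibroblasts showed 100.04 CPM in control cells against 926 CPM in mutant ones (log2 ratio 3.20). It was above 0 in 18.6% (14.1 to 23.8) of control and 55.3% (46.4 to 64.0) of mutant fibroblasts. Mutant fibroblasts were deeper, with a median of 6358 estimated UMIs against 3439, but after thinning to 1500 UMIs the shares were still 10.3% of 261 and 36.7% of 128 cells. Without thinning, the share of control erythroid cells above 0 was 0.346% for Cxcl1, 0.0576% for Ccl2 and 0 of 1735 cells for Ccl7. Single mutant fibroblasts reached 17189 CPM, against 1920.1 CPM for the highest control cell (the plot of single fibroblasts).

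**Figure D4:**
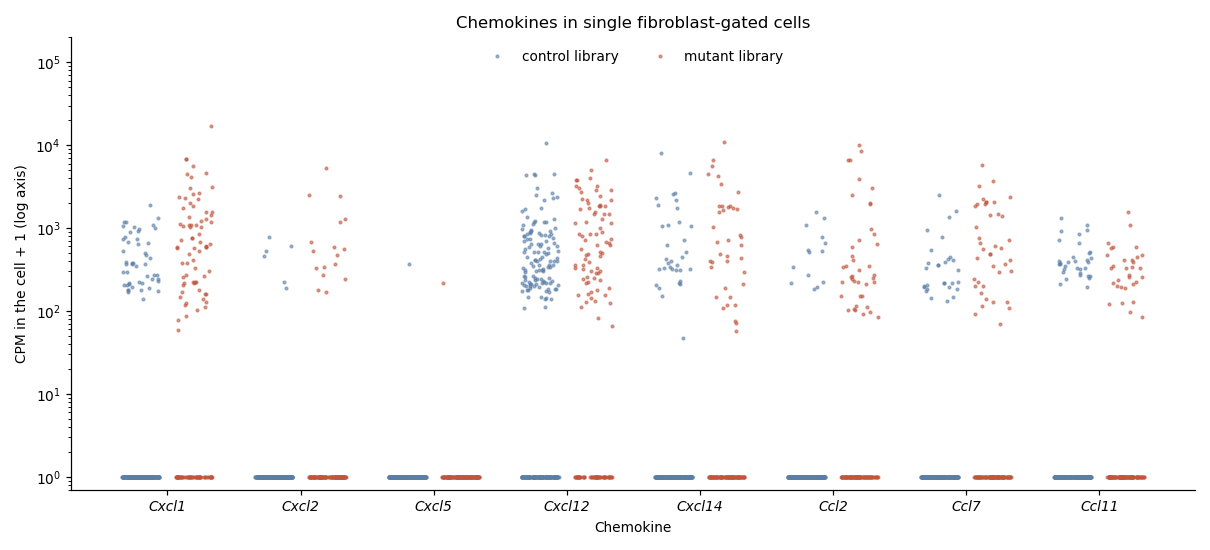
CPM + 1 (log axis) of each chemokine in single cells gated as fibroblasts, with 1 dot per cell for 269 control and 132 mutant cells, cells at 0 forming the bottom row. The mutant dots of Cxcl1, Ccl2 and Ccl7 reach levels above those of the highest control cell, whereas those of Ccl11 span much the same range.

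In marrow stromal cells Cxcl1 was 97.2 CPM among control and 297 CPM among mutant cells (log2 ratio 1.60), and the ratio fell below 1, to 0.85, in cells thinned to a common depth. It was detected in 20 of 128 control and 37 of 93 mutant marrow stromal cells, or in 10.9% of 110 and 16.0% of 81 after thinning, and mutant cells were deeper, at a median of 5185 estimated UMIs against 2783. Osteoblasts had 10.5 and 46.8 CPM (2.06), from 8 of 149 and 14 of 106 cells. Mural cells, the pericytes and smooth muscle of vessels, had 25.4 and 206 CPM (2.97), from 2 of 52 and 5 of 30 cells, with 78.6% of the mutant UMIs from 3 cells.

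As in osteoblasts and mural cells, the Cxcl1 ratio rested on few cells in the remaining classes. Synovial lining cells, the lubricin-producing surface layer of the joint, had 23.1 CPM in control cells against 235 CPM in mutant ones (3.29), and 3 of 77 mutant cells supplied 76.2% of the mutant UMIs. The lining ratio stayed above 1 under all 14 alternatives, between 1.68 and 3.38. Chondrocytes, the cells in which deletion was aimed, had 14.1 and 47.8 CPM (1.70), with 73.6% of the mutant UMIs from 3 of 344 cells. Without the 3 highest cells of each library the chondrocyte ratio was 0.13, and it was -0.20 in clusters in place of gates. Tenocytes had 6.71 and 74.2 CPM (3.29), the mutant value coming from 2 of 42 cells, and the ratio was -0.59 in clusters.

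Cxcl2 had at least 10 estimated UMIs in both libraries only in fibroblasts, and 4 other classes qualified through the mutant library alone. It stood at 11.2 and 171 CPM in fibroblasts (3.81), where it was detected in 6 of 269 control cells and in 17 of 132 mutant ones. Synovial lining cells had 6.73 and 102 CPM (3.73), with 97.0% of the mutant UMIs from 3 cells. The level was 4.68 and 30.1 CPM in marrow stromal cells, 2.61 and 22.4 CPM in osteoblasts and 1.54 and 8.86 CPM in chondrocytes, in each of which no more than 5 mutant cells carried it, and the chondrocyte ratio was 0.71 with a pseudocount of 10 CPM. The highest mutant lining cell held 62.0 estimated UMIs of Cxcl2, whereas no control cell held more than 5.93.

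Of the Ccr2 ligands, Ccl2 was 29.0 CPM in control and 356 CPM in mutant fibroblasts (3.57), and 43.2 and 293 CPM in marrow stromal cells (2.73). It was above 0 in 5.20% (2.87 to 8.58) of control and 31.1% (23.3 to 39.7) of mutant fibroblasts, or in 3.45% and 16.4% after thinning, and 45.2% of the mutant UMIs came from 3 cells. The share of marrow stromal cells was 11.7% (6.71 to 18.6) and 33.3% (23.9 to 43.9), or 10.0% and 24.7% after thinning. These ratios lay between 3.23 and 3.79 and between 2.30 and 2.85 over the 14 alternatives. Mutant mural cells had Ccl2 in 4 of 30 cells, and 0 of 52 control mural cells had a UMI of it, where 3 counts allow up to 5.77% of cells with a UMI at a median of 1936 estimated UMIs per cell.

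Ccl7 followed Ccl2 in fibroblasts, at 59.8 CPM among control and 389 CPM among mutant cells (2.68), and was above 0 in 10.8% (7.34 to 15.1) and 31.1% (23.3 to 39.7) of them. The marrow stromal level was 20.6 and 74.2 CPM (1.80), but the share of cells was 5.47% and 6.45%, with 75.7% of the mutant UMIs from 3 cells. Chondrocytes had 2.29 and 3.04 CPM (0.30), from 5 control and 3 mutant cells, a ratio that took both signs over the alternatives.

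Ccl11 differed less than the other members in fibroblasts, with 48.9 CPM in control cells against 71.6 CPM in mutant ones (0.54), and the ratio ranged from -0.14 to 0.75 over the alternatives. Its share of cells was 12.3% (8.60 to 16.8) and 24.2% (17.2 to 32.5), but 6.13% and 7.03% after thinning. The range of Ccl11 in single cells was also similar, with a highest cell of 1311.9 CPM among control and 1565 CPM among mutant cells. Ccl11 shares a 27.4 kb stretch of chromosome 11 with Ccl2 and Ccl7, which were higher by 3.57 and 2.68 in the same cells.

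Cxcl12 took different signs in different classes. Fibroblasts had a log2 ratio of 1.28, and the ratio was 0.79 in cells thinned to a common depth and 0.69 in clusters, both under 1. Synovial lining cells had 227 CPM in control cells against 62.0 CPM in mutant ones (-1.85), a ratio that stayed between -2.47 and -1.52 under every alternative. The share of lining cells above 0 was 27.1% (21.7 to 33.1) and 16.9% (9.31 to 27.1), with overlapping intervals, although mutant lining cells were deeper, at a median of 7747 estimated UMIs against 4239. In osteoblasts it was 152 and 58.6 CPM (-1.36), with 71.0% of the control UMIs from 3 cells, and the ratio was -0.32 without the 3 highest cells of each library and 0.45 with cells weighted equally. Tenocytes had 33.1 and 15.8 CPM (-1.02), the mutant value from 3 cells, and the ratio stayed at -1 or lower in 5 of 13 alternatives, ranging from -3.82 to 0.54. Chondrocytes had 24.6 and 21.9 CPM (-0.16), and 3 cells supplied 72.6% of the control and 69.4% of the mutant UMIs.

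Cxcl14 was higher in mutant fibroblasts by 2.23, above 0 in 12.6% (8.91 to 17.2) of control and 29.5% (21.9 to 38.1) of mutant cells, or in 8.81% and 18.8% after thinning. The 3 highest cells held 51.7% of the mutant UMIs, and without them the ratio was still above 1. In marrow stromal cells, its highest class, the ratio was 0.68 and ranged from 0.57 to 0.80. In chondrocytes it was -0.75 and ranged from -1.07 to -0.52, so the mutant level was lower under every alternative there and higher under every alternative in marrow stromal cells. Tenocytes had a ratio of 1.25, but 70.6% of the mutant UMIs were from 3 of 42 cells, and the ratio was -0.15 without the 3 highest cells of each library. Osteoblasts had 60.3 and 25.8 CPM (-1.19), and 1.34 with cells weighted equally. Lining cells had 5.48 and 49.7 CPM (2.97), with 88.1% of the mutant UMIs from 3 cells, and 5.90 and 10.7 CPM in clusters, where it did not reach 10 UMIs.

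Several members occurred in the same cell in both fibroblasts and marrow stromal cells. At least 4 of the 8 members were detected in 10 of 269 control fibroblasts and in 36 of 132 mutant ones, and in 0 of 261 and 14 of 128 after thinning. The same count in marrow stromal cells was 8 of 128 and 23 of 93, or 3 of 110 and 9 of 81 after thinning. Among thinned mutant fibroblasts, Ccl7 was above 0 in 57.1% of the 21 cells with Ccl2 and in 10.3% of the 107 cells without it. Cxcl1 was above 0 in 66.7% of the cells with Ccl2 and in 30.8% of those without. Cxcl12 was above 0 in 1 of 9 cells with Ccl11 and 53 of 119 without, and in 4 of 16 and 76 of 245 among thinned control fibroblasts. These are counts of cells from 1 library.

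The gated fibroblasts were divided by whether Pi16 or Dpp4, markers of an adventitial progenitor type, was above 0. Cxcl12 was higher in cells without either marker, at 623 against 145 CPM for control cells and 1260.5 against 479 CPM for mutant cells. Ccl11 was 48.0 CPM without and 49.6 CPM with a marker in the control library, and 44.2 and 105 CPM in the mutant library. Cxcl1 was 84.7 CPM in control and 680.4 CPM in mutant cells with a marker, and 117 and 1129 CPM in cells without one, so its difference between the libraries was present in both subsets. The same held for Ccl2, at 39.6 and 229 CPM with a marker and 17.4 and 460 CPM without one.

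Likeness of pattern was measured by Pearson's r of log2(CPM + 1) over 16 points, 8 classes in each of 2 libraries, which share depth and composition and are no replicates. The genes most like Ccl11 were Pi16 (0.97), Tek (0.95) and Col6a6 (0.92), and Pi16 is itself a gate marker of the fibroblast class. Those most like Cxcl12 were Vcam1 (0.92), Ptx3 (0.92) and Samhd1 (0.91), with Vcam1, an adhesion molecule, at 1036 and 1132 CPM in marrow stromal cells and at most 76.7 CPM in any other class. Ccl7 was most like Cxcl13 (0.94), Ccl19 (0.93) and Bmper (0.90). Cxcl13 and Ccl19, lymphoid-tissue chemokines, stood at 11.4 and 19.7 CPM in control and at 100.3 and 104 CPM in mutant fibroblasts. The genes most like Cxcl14 were Emb (0.93), Gpm6b (0.90) and Apoe (0.90), and those most like Cxcl1 were Gstm1 (0.93), Cited2 (0.92) and Cstb (0.91). Ccl2 was most like Mgst1 (0.87), Tmed5 (0.86) and Ms4a4d (0.83), and Cxcl2 most like Ccnl1 (0.82), Zfand5 (0.80) and Ddx5 (0.79). Cxcl5 was most like Ms4a4d (0.94), Ccbe1 (0.92) and Kng2 (0.92), but its pattern rests on 9 UMIs of Cxcl5 in all.

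Of 30 other chemokine genes listed, 29 were in the tables and 6 had at least 10 estimated UMIs in fibroblasts of either library. A gene that qualifies through 1 library favours the direction of that library, in this and the following lists. Of the 6, 3 were higher by at least 1 and none lower, against 5.69% and 9.84% of all genes. Their median was 0.34 against -0.14 for all genes. Ccl19 was among the higher ones (2.35), whereas Cxcl10, an interferon-induced ligand of Cxcr3, was 158 CPM in control and 78.6 CPM in mutant fibroblasts (a ratio just short of the limit). Chondrocytes had 4 of 8 higher and none lower, against 2.78% and 7.05% of all genes. Among the higher were Cxcl9 at 1.88 and 35.4 CPM and Cxcl10 at 6.91 and 36.8 CPM. Of 23 chemokine receptor genes 5 could be compared in fibroblasts, 1 of them higher and 2 lower. Ackr3, the scavenging receptor of Cxcl12, was 109 CPM among control and 209 CPM among mutant cells (0.94), and Cx3cr1 was 34.2 and 166 CPM (2.25).

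Genes of the NF-kB response, such as the inhibitor Nfkbia and the transcription factor Cebpb, were described as a list of 20. In fibroblasts all 20 qualified, 10 were higher by at least 1 and none was lower, with a median of 1.08. Of all genes in that class 5.69% were higher and 9.84% lower, with a median of -0.14. Nfkbia was 291 CPM in control cells against 776 CPM in mutant ones (1.41), and Cebpb was 22.9 and 286 CPM (3.58). Csf1 and Tnfaip2 of the same list had ratios of -0.26 and 0.11, so the list did not move as a whole. In the other stromal classes the ratio was between 0.69 and 1.51 for Nfkbia and between 1.81 and 3.87 for Cebpb. It was between -0.65 and 0.11 for Csf1 and between -3.19 and -0.17 for Tnfaip2 in these classes. The list median there was between 0.13 and 0.75. It was highest in lining cells, where 7 of 14 were higher and 1 lower, against 6.76% and 6.57% of all genes.

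Transcripts that rise during tissue dissociation were described in the same way. Of 19 such genes 8 were higher in mutant fibroblasts and none lower, with a median of 0.84. Of all genes in that class 5.69% were higher and 9.84% lower. Jun, however, was 3258 CPM among control and 1746 CPM among mutant cells (-0.90) and Fosb 2181 and 1446 CPM (-0.59). In synovial lining cells 1 of these genes was higher and 4 lower, with a median of -0.48, against 6.76% and 6.57% of all genes. In marrow stromal cells 1 was higher and none lower, with a median of 0.16, against 8.5% and 13.7% of all genes. In osteoblasts 6 were higher and none lower, with a median of 0.45, against 4.98% and 12.3% of all genes. The list median was -0.10 in chondrocytes, 0.11 in tenocytes and 0.37 in mural cells. The part of dissociation in the chemokine values was not tested.

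Most leukocyte markers were at 0 in the same fibroblasts, but the sum of the macrophage markers was higher in the mutant library, mostly through Lyz2. All 6 leukocyte gate markers, Ptprc among them, were at 0 in the mutant fibroblasts, and 1 of 6 was above 0 in the control ones, at 0.995 CPM. The 8 macrophage markers summed to 4.70 CPM in control cells against 37.3 CPM in mutant ones, 27.4 CPM of it from Lyz2, with Adgre1, C1qa, C1qb, C1qc and Mrc1 at 0 in both. Lyz2 alone had a log2 ratio of 3.87, from 0.946 CPM in control fibroblasts. The 8 neutrophil markers summed to 0 and 2.09 CPM. In cells with none of the leukocyte and macrophage markers above 0, an alternative chosen after the values were seen, the Cxcl12 ratio in fibroblasts was 0.79, and Cxcl1, Cxcl2, Cxcl14, Ccl2 and Ccl7 stayed above 1. Globin transcripts, products of erythroid cells, summed to 251 CPM in control and 0 CPM in mutant fibroblasts. The marker sums of neighbouring classes also differed, with synovial lining markers at 389.7 and 1313 CPM and marrow stromal markers at 443 and 225 CPM in the same gate, and their part in the ratios was not tested.

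The authors marked in the deposited tables the cells they took as chondrocytes, 501 control and 332 mutant cells. All of these had both Sox9 and Col2a1 above 0 and no globin transcript. Cells with both genes above 0, globin or not, numbered 1013 in the control and 335 in the mutant table, 512 and 3 of them with globin. Of the marked cells 94.0% (control) and 82.5% (mutant) were gated as chondrocytes here.

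Among the marked cells Ccl2 stood at 0.777 CPM (control) and 24.9 CPM (mutant), and 83.5% of the mutant UMIs were in 7 cells gated as fibroblasts and 2.07% in 274 cells gated as chondrocytes. Ccl7 was 4.57 and 31.0 CPM, with 81.1% of the mutant UMIs in the same 7 cells. Cxcl1 was 17.4 and 122 CPM, with 59.9% in them. For these 3 members most of the UMIs of the mutant marked cells were thus in a few cells of the fibroblast gate. Cxcl12 was 64.8 and 231 CPM, and 84.6% of the mutant UMIs were in 8 cells gated as marrow stromal, against 95.0% in 4 such cells of the control. In all gated chondrocytes the corresponding levels were 0.402 and 0.539 CPM for Ccl2, 2.29 and 3.04 CPM for Ccl7 and 24.6 and 21.9 CPM for Cxcl12. For Cxcl1 they were 14.1 and 47.8 CPM, with 73.6% of the mutant UMIs from 3 of 344 cells. Cxcl14 was 251 and 188 CPM among the marked cells, and gated chondrocytes held 95.6% (control) and 69.4% (mutant) of it. In the 1013 and 335 cells chosen without regard to globin, Ccl2 was 0.44 and 24.8 CPM, Ccl7 2.95 and 30.8 CPM and Cxcl12 65.9 and 229.7 CPM.

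**Figure D5:**
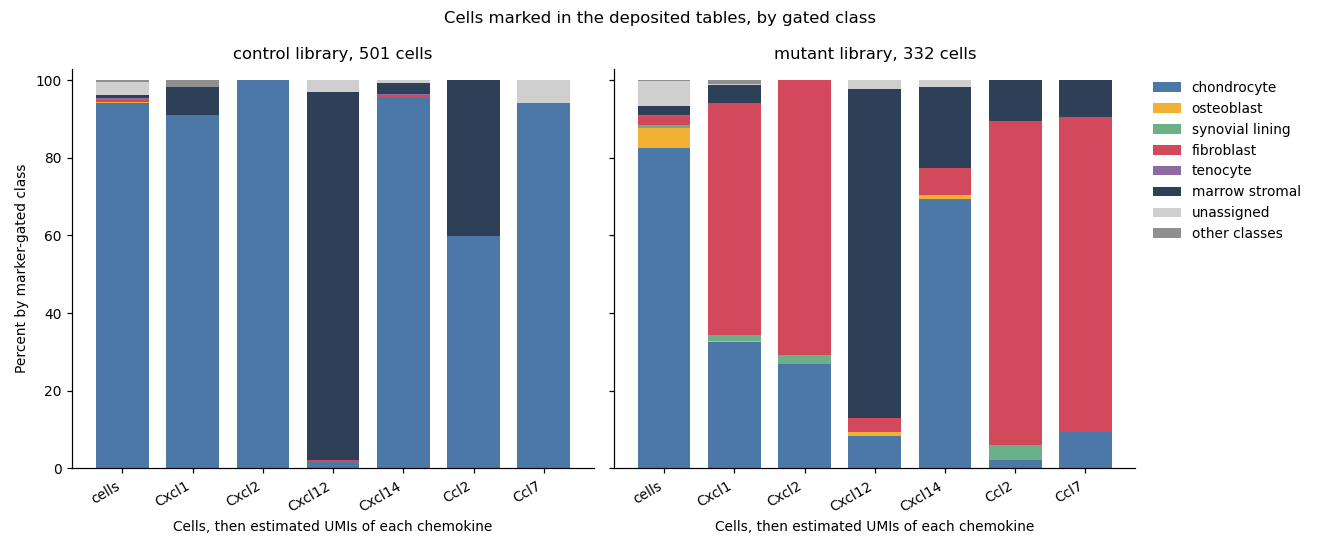
Cells that carry the authors' mark and the estimated UMIs of 6 chemokines in them (x axis), as percent by gated class (y axis), for 501 control and 332 mutant cells. Chondrocytes were 82.5% of the mutant cells but held 2.07% of their Ccl2 and 8.42% of their Cxcl12.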

How the data were processed

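Both libraries were 10x 3′ v3.1 preparations. According to the study's methods and the submitters' processing notes, reads were aligned by the authors with STAR 2.7.3a (Partek) to mm10 and counted against Gencode genes, a knee plot separated cells from empty droplets, and SoupX subtracted free RNA, with R 4.0.3 among the tools. The gene values the authors deposited are log2(CPM + 1) per cell. For each cell the authors give a total, an estimated count that is not whole because free RNA was subtracted. Shares of mitochondrial and ribosomal reads were deposited in percent, and the number of expressed genes is a score per cell deposited by the authors. The stated limit of 5% mitochondrial counts had not been applied to these tables, since 694 control and 492 mutant cells exceeded it, and no cell exceeded the limit of 24000 counts.

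Estimated UMIs were recovered as (2 to the power of the value, minus 1) times the total over 1000000, and 74.9% of control and 97.3% of mutant values above 0 lay within 0.1 of a whole number. UMIs were summed per class and library and divided by their total, and log2((mutant CPM + 1)/(control CPM + 1)) was taken. No count model was used. Cells were thinned to 1500 UMIs for shares of cells, which left out 660 control and 346 mutant cells. Clusters came from Leiden at resolution 1 on 30 components of 2000 variable genes without the 8 chemokines (scanpy 1.11.5). Scrublet at a rate of 0.05 marked 74 control and 2 mutant cells, which were kept in the main values, and at 0.149% of mutant cells it is not taken to have worked there. Named genes were the 8 members, the 3 most like each, among genes of at least 50 CPM in a class, and up to 5 of each list by mean level, besides Stat3 and gate markers. Cxcl13 outside its list's 5 was named by likeness. The members, lists and gates were chosen with earlier results of these data known. On simulated data for 8486 genes in fibroblasts, 100% of 4-fold higher and 92% of 4-fold lower genes passed the fold limit, as did 2.76% of unchanged ones. All simulated cells of a library were drawn from the same profile, without variation between cells. These shares therefore do not apply to ratios in which a few cells hold much of the UMIs.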

Additional observations from a re-analysis of the deposited data

Results flagged for a closer look

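Cxcl12 and Cxcl14 were each at least 2-fold higher in the mutant library in one stromal class and at least 2-fold lower in another. For Cxcl12 the log2 ratio was 1.28 in fibroblasts, against -1.02 in tenocytes, -1.36 in osteoblasts and -1.85 in synovial lining cells. For Cxcl14 it was 2.97 in synovial lining cells, 2.23 in fibroblasts and 1.25 in tenocytes, against -1.19 in osteoblasts. With 1 library per genotype the difference between classes was not tested. The osteoblast and tenocyte values rested on few cells and turned sign under an alternative, as given below. The Cxcl14 value of lining cells rested on 3 of 77 mutant cells with 88.1% of the UMIs, and in clusters the lining levels were 5.90 and 10.7 CPM.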

How the results depend on the processing

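No paired analysis was possible because each genotype has 1 library, and for the same reason no replicate could be left out. Over 14 alternatives, 15 of the 24 ratios in stromal classes past the fold limit stayed past it wherever they could be computed. The 20 pairs higher in the mutant library, 9 of which qualified through that library alone, became 9 in thinned cells and 10 without the 3 highest cells of each library. The 6 lower pairs became 3 in cells within 5% mitochondrial counts, 2 with a pseudocount of 10 CPM, 3 with a gate of 4 markers, 3 in Leiden clusters, 2 in thinned cells and 3 in cells of at least 2000 counts. Fewer pairs qualified in several of these, 20 in thinned cells and 22 without the 3 highest cells, against 32. Signs turned in Leiden clusters for Cxcl1 in chondrocytes (-0.20) and tenocytes (-0.59) and for Cxcl12 in osteoblasts (0.49) and tenocytes (0.54), with cells weighted equally for Cxcl12 (0.45) and Cxcl14 (1.34) in osteoblasts, and without the 3 highest cells for Cxcl14 in tenocytes (-0.15). The cause was not tested. Cxcl12 in chondrocytes, not past the limit, ranged from -1.35 without doublets to 3.05 in cells without globin. Depth limits what can be said of Cxcl5, of Ccl11 outside fibroblasts and of mutant erythroid, mural and tenocyte cells.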

Other observations

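Cxcl2 was also found in a cluster with leukocyte markers, led by S100a9 and S100a8, that held 14 control and 49 mutant cells despite the sort against CD45. It was above 0 in 4 of the control and 2 of the mutant cells, at 255 and 185 CPM. Cxcl1, Cxcl5, Ccl2, Ccl7 and Ccl11 had no UMI in either library's cells of this cluster, which for 49 mutant cells is a small number to read. Cells that no gate claimed held 5.32% of the Cxcl12 UMIs of the control and 8.99% of those of the mutant library, at 172 and 646 CPM, and 34.0% of the Ccl11 UMIs of the control against 1.45% of those of the mutant library.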
